A study of Mus musculus with 18 samples.

Results

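IL-2 was compared with IL-15 in antigen-primed OT-I CD8+ T cells, through the transcript levels of 18195 genes on 6 of the 18 arrays of the study, 3 with IL-2 and 3 with IL-15. OT-I cells recognize an ovalbumin peptide through a transgenic receptor and came from male OT-I Thy1.1 TCR Tg mice, named OT-I TCR Tg in the sample labels. Thy1.1 is an allele of the T cell surface protein Thy1. All groups shared the same history, since CD8+ cells purified from spleens by negative isolation were primed for 48 hours with irradiated C57BL/6 splenocytes that carried the peptide, enriched for viable cells on a density gradient, and re-seeded. They were then cultured for 24 hours with recombinant murine IL-2 at 100 ng/ml, with recombinant murine IL-15 at 100 ng/ml, or in media control without added cytokine. The other 9 arrays held IL-4, IL-7 and IL-21 at the same dose. The irradiated splenocytes were present during priming. The study's figure legends call the primed cells re-purified, while its methods name the density gradient and no sort. The single dose and time give no dose or time course. RNA of replicates 1 and 2 was extracted with the RNeasy kit and that of replicate 3 with TRIzol and Direct-zol. The study calls the replicates biological but the sources used here do not say which mice they came from, so a p-value measures the spread between these arrays.

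IL-2 and IL-15 are close relatives that signal through the same pair of receptor chains, the beta chain (Il2rb) and the common gamma chain (Il2rg), which activate the kinases JAK1 and JAK3 and the transcription factor STAT5. Each has an alpha chain of its own. That of IL-2 (Il2ra, CD25) sits on the responding T cell and raises its affinity for the cytokine, while that of IL-15 (Il15ra) mostly acts on a neighbouring cell that presents IL-15 to the T cell. In CD8+ T cells IL-2 is known for driving growth and effector differentiation, and IL-15 for the upkeep of memory cells.

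Values are log2 levels after quantile normalization of the 18 arrays, so a difference of 1 is a 2-fold change. Differences are IL-2 minus IL-15 and come with their standard error (SE) and a two-sided p from a limma fit over the 18 arrays with the replicate number as a block, adjusted by the Benjamini-Hochberg method over all genes. A gene was called higher or lower at an adjusted p under 0.05. A level of 7.2, the 95th percentile of 36 genes of other tissues, was taken as the background level. Where 1 or both groups lay under it, the size of a difference is not exact.

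The replicate 3 arrays stood apart. As deposited, replicate 3 of IL-2, IL-15 and media control had medians between 4.47 and 4.52, and the other 15 arrays between 5.76 and 5.84. The replicate 3 arrays of IL-2 and IL-15 held identical deposited values at 18715 of 45101 probe sets (41.5%), while no other pair of arrays that included at most 1 of these 3 arrays shared more than 48. Media control replicate 3 shared 14324 (31.8%) with IL-2 replicate 3 and 16485 (36.6%) with IL-15 replicate 3. Among the genes, 6680 (36.7%) had identical replicate 3 values. The median absolute difference between IL-2 and IL-15 in replicates 1 and 2 was 0.118 for these genes and 0.256 for the others, and the cause of the identity was not tested. Replicate 3 also gave the smallest differences, with an SD over genes of 0.468 for IL-2 minus IL-15 in replicate 1, 0.580 in replicate 2 and 0.339 in replicate 3. The excess of the 3' over the 5' probe set of actin, a sign of RNA integrity, was 0.59 for IL-2 and 0.68 for IL-15 in replicate 3, against 0.19 to 0.31 in the RNeasy arrays and 0.37 to 0.40 in the 3 TRIzol arrays of IL-4, IL-7 and IL-21. Of the genes with identical values 823 were called when replicate 3 was left out. They lie along a horizontal line in the plot of the replicate differences.

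**Figure D1:**
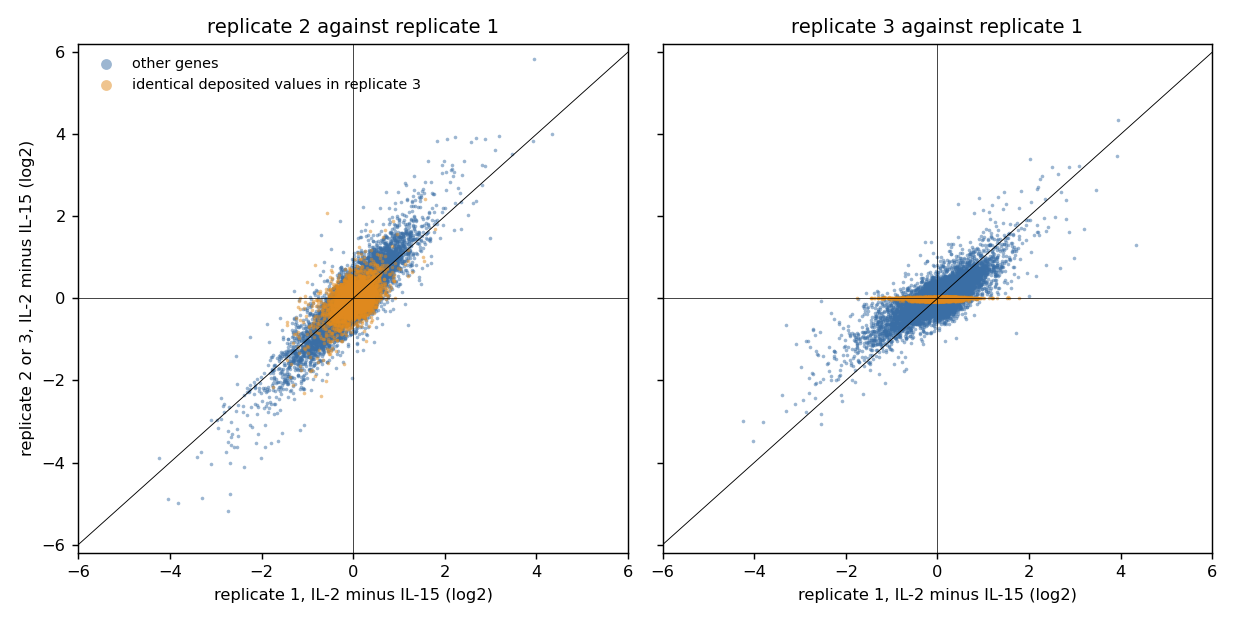
IL-2 minus IL-15 on the log2 scale in replicate 2 (left panel, vertical axis) and replicate 3 (right panel, vertical axis) against the same difference in replicate 1 (horizontal axis), for all 18195 genes. Orange points are the 6680 genes with identical deposited values in replicate 3, which lie close to 0 in the right panel, and the diagonal marks equal differences.

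IL-2 changed the transcriptome in both directions relative to IL-15. Of 18195 genes, 2092 were higher with IL-2 (11.5%) and 1984 were lower (10.9%). Counts in the gene lists below are to be read beside these shares. Differences of at least 1 on the log2 scale were reached by 335 of the genes higher and 385 of the genes lower, and differences of at least 2 by 37 and 57. In a population measured in bulk, fewer cells of a kind and less RNA per cell cannot be told apart. The 3 pairs of replicates had the same sign in 2072 of the 2092 genes higher and in 1948 of the 1984 genes lower. The 3 IL-2 arrays lay beyond all 3 IL-15 arrays in 1261 and 1251. Over all 18195 genes the pairs had the same sign in 9623, and the groups did not overlap in 3194. Both are more likely in genes that were called, so they are not separate support. The group with the higher mean was above the background level in 1858 of the genes higher, 1768 of the genes lower and 8333 of all genes. Of the 4076 called genes, 116 (2.85%) were among those with identical replicate 3 values. Identical deposited values leave almost no difference in replicate 3, which works against a call. The share therefore cannot tell whether the identity affected the calls. When replicate 3 was left out, 823 genes with identical values were called. Without replicate 3 there were 3047 genes higher and 2864 lower, without replicate 1 there were 778 and 749, and without replicate 2 there were 751 and 753. Leaving out IL-15 replicate 2 alone gave 1366 and 1304. Without the replicate block in the fit 772 genes were higher and 793 lower. Genes with several probe sets on the array give a second look at the same RNA, and of 1877 other probe sets of called genes above the background level 1755 (93.5%) differed in the same direction, 1225 of them (65.3%) past the threshold, and 17 passed in the opposite direction.

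**Figure D2:**
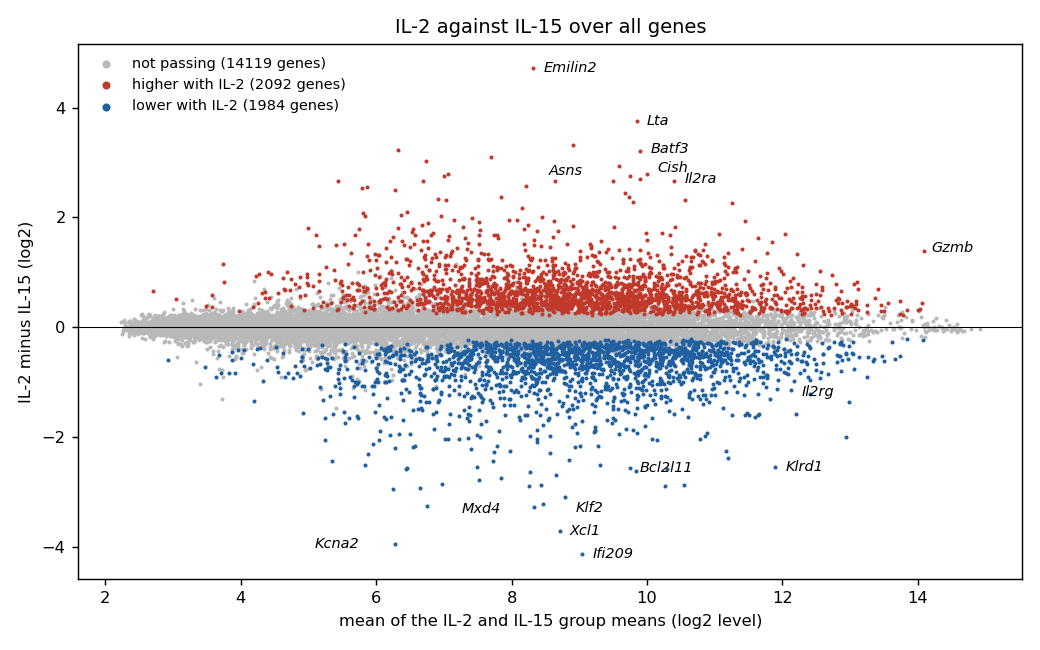
IL-2 minus IL-15 (vertical axis, log2) against the mean of both group means (horizontal axis, log2 level), 1 point per gene. Red points are the 2092 genes called higher with IL-2, blue points the 1984 called lower and grey points the genes that did not pass, with Emilin2 at the top and Ifi209 at the bottom.

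The largest measured rise with IL-2 was that of Emilin2, an extracellular matrix glycoprotein, with levels of 10.43, 11.56 and 10.03 with IL-2 and 6.49, 5.72 and 5.67 with IL-15. It was higher with IL-2 by 4.71 (SE 0.41, adjusted p = 3.3e-06). Next came lymphotoxin alpha (Lta), a cytokine of the TNF family, with levels of 11.66, 11.59 and 11.92 with IL-2 and 7.73, 7.76 and 8.44 with IL-15, a difference of 3.75 (SE 0.13, adjusted p = 1.3e-09). The groups did not overlap for either gene, and the IL-15 arrays of Emilin2 lay under the background level, so the size of its rise and its rank are not exact. Batf3, an AP-1 family transcription factor, had levels of 11.57, 11.25 and 11.68 with IL-2 and 8.10, 7.74 and 9.05 with IL-15, higher with IL-2 by 3.20 (SE 0.23, adjusted p = 7.6e-07). Hemk1, a methyltransferase gene, was higher by 3.32 (SE 0.13, adjusted p = 3.1e-09) and Zfp608, which encodes a zinc finger protein, by 2.79 (SE 0.28, adjusted p = 1.0e-05). Another probe set of Zfp608 was higher by 0.67 (adjusted p = 0.0321), and its IL-15 mean of 5.66 in the probe set used lay under the background level. The largest measured fall was that of Ifi209, an interferon-inducible gene of the p200 family, with levels of 6.81, 6.95 and 7.18 with IL-2 and 10.85, 11.83 and 10.66 with IL-15, a difference of -4.13 (SE 0.26, adjusted p = 3.3e-07). Every IL-2 array of Ifi209 lay under the background level, so the size of this fall and its rank are not exact either. The voltage-gated potassium channel gene Kcna2 had levels of 4.13, 4.64 and 4.16 with IL-2 and 7.95, 9.64 and 7.17 with IL-15, a difference of -3.94 (SE 0.30, adjusted p = 1.0e-06). Every IL-2 array of Kcna2 lay under the background level, as did replicate 3 of IL-15, so the size of its fall is not exact. Tbc1d4, a Rab GTPase activator known from insulin signalling, was lower by 2.93 (SE 0.31, adjusted p = 1.3e-05). Its IL-2 mean of 5.18 lay under the background level. Another probe set of Tbc1d4 was lower by 0.57 (adjusted p = 0.0424), so the size of this fall is not exact. Ifi213 and Mndal, which neighbour Ifi209 on chromosome 1 and belong to the same family of similar sequences, were lower, at -2.94 (SE 0.52, adjusted p = 7.0e-04) and -2.86 (SE 0.15, adjusted p = 7.6e-08). Probe sets of such relatives can bind each other's transcripts. Ifi213, whose IL-2 mean of 4.77 lay under the background level, lost its call without replicate 1.

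**Figure D3:**
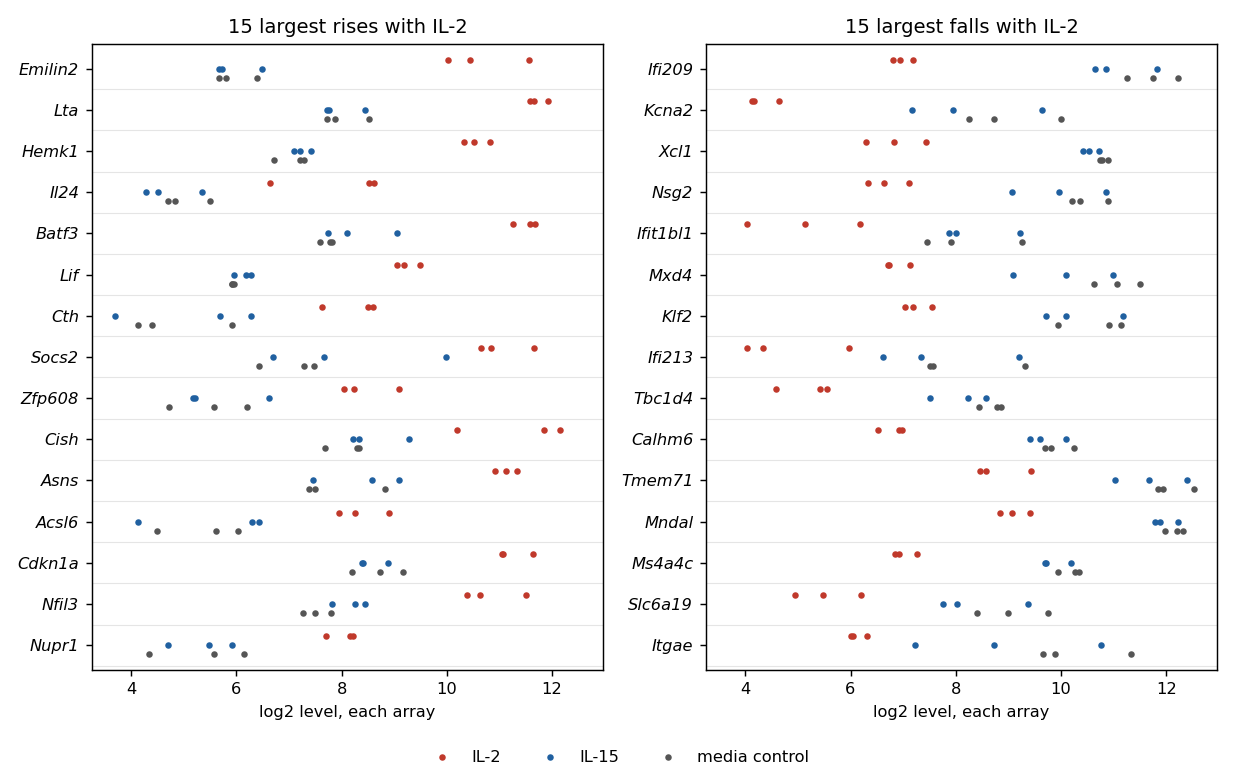
Log2 level (horizontal axis) in each array for the 15 largest rises (left panel) and the 15 largest falls (right panel) with IL-2, 1 row per gene. Red points are the 3 IL-2 arrays, blue points the 3 IL-15 arrays and grey points the 3 media control arrays. Genes were chosen for arrays that do not overlap, so the IL-2 points lie beyond all IL-15 points in each row.

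The receptor for IL-2 itself differed in its private chain. Il2ra had levels of 11.89, 11.36 and 11.94 with IL-2 and 9.09, 8.60 and 9.53 with IL-15, so the groups did not overlap, and was higher with IL-2 by 2.66 (SE 0.19, adjusted p = 7.5e-07). Its other probe set differed by 3.18. The common gamma chain went the other way, Il2rg having levels of 11.38, 11.59 and 12.10 with IL-2 and 12.32, 12.87 and 12.80 with IL-15, a difference of -0.97 (SE 0.10, adjusted p = 1.2e-05). The shared beta chain Il2rb stood at levels of 11.84, 11.71 and 10.90 with IL-2 and 11.62, 11.59 and 10.96 with IL-15, with a difference of 0.09 (SE 0.11, adjusted p = 0.728). Il15ra, the private chain of IL-15, had levels of 7.97, 7.82 and 7.58 with IL-2 and 7.93, 7.81 and 7.62 with IL-15, slightly above the background level, and its groups overlapped, with a difference of 0.00 (SE 0.09, adjusted p = 0.999). Il2rb and Il15ra had identical deposited values in replicate 3, as had Il9r and Il21r among the other chains. Of the 8 receptor chains of the common gamma chain family measured, 1 was higher and 1 was lower. These shares of 12.5% each are near the 11.5% and 10.9% of all genes. The differences of the alpha chains for IL-4 and IL-7 and of the receptors for IL-9 and IL-21 were 0.24 (Il4ra), -0.15 (Il7r), 0.09 (Il9r, under the background level) and 0.03 (Il21r), with adjusted p of 0.432 or higher.

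Downstream of the receptor, the genes of the kinases and STAT factors did not rise. Of 10 measured, 0 were higher and 5 were lower, against 11.5% and 10.9% of all genes (2, 2 and 7 lower without replicates 1, 2 and 3). Jak2 fell by 1.20 (SE 0.13, adjusted p = 1.3e-05), and Jak1, the kinase bound to the beta chain, had levels of 11.04, 11.21 and 10.49 with IL-2 and 11.99, 12.37 and 11.14 with IL-15, a difference of -0.92 (SE 0.12, adjusted p = 7.6e-05). Jak3, the kinase bound to the gamma chain, differed by -0.10 (SE 0.11, adjusted p = 0.691) and Stat5a differed by -0.03 (SE 0.15, adjusted p = 0.96). Stat5b was lower by 0.41 (SE 0.13, adjusted p = 0.0293) in the probe set used, while its other probe set was higher by 0.56 (adjusted p = 0.0316), so the direction of Stat5b depends on the probe set. Tyk2 (-0.49) lost its call without IL-15 replicate 1 or 2 (adjusted p = 0.0597 and 0.0747), Stat5b without IL-2 replicate 1 or 3 (adjusted p = 0.0746 and 0.114) and without IL-15 replicate 1 or 2 (0.134 and 0.207), and the number of members lower was 3 without IL-15 replicate 1 and 3 without IL-15 replicate 2.

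Genes known to be induced by STAT5 in T cells were higher with IL-2. Of 20 measured, 17 were higher and 0 were lower, with a median difference of 1.54, against 0.02 over all genes. The number higher was 15, 14 and 18 without replicates 1, 2 and 3. Cish, a feedback inhibitor of STAT5 signalling of the SOCS family, had levels of 11.85, 12.15 and 10.20 with IL-2 and 9.28, 8.33 and 8.22 with IL-15, higher by 2.79 (SE 0.27, adjusted p = 7.2e-06). Its relative Socs2 had levels of 10.85, 10.65 and 11.66 with IL-2 and 7.66, 6.70 and 9.98 with IL-15, higher by 2.94 (SE 0.38, adjusted p = 6.0e-05). In both genes the groups did not overlap, and IL-15 replicate 3 of Socs2 lay closest to the IL-2 arrays. Osm, the cytokine oncostatin M, was higher by 2.01 (SE 0.23, adjusted p = 2.2e-05), Pim1, a serine/threonine kinase that supports survival, by 1.28 (SE 0.24, adjusted p = 0.00118), and Lif, leukemia inhibitory factor, by 3.10 (SE 0.17, adjusted p = 1.3e-07). The IL-15 mean of Lif was 6.14, under the background level, so the size of its rise is not exact. Pim1 lost its call without replicate 2. Cdkn1a, the cell cycle inhibitor p21, was higher by 2.69 (SE 0.23, adjusted p = 2.5e-06). Id2, Ccnd2 and Pim2 did not pass, with differences of 0.57, 0.23 and 0.20. Bcl2l1 and Bcl2 are described with the BCL2 family. Among 16 feedback inhibitors of cytokine and growth factor signalling, 9 were higher (56.2%, against 11.5% of all genes) and 0 were lower. Those higher included Socs1 (1.07), the phosphatase gene Dusp4 (1.76) and the RAS pathway inhibitor Spred1 (1.14, with both group means under the background level). The number higher was 6, 6 and 9 without replicates 1, 2 and 3. Cish, Socs2 and Socs1 are on both this list and that of the STAT5 targets.

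STAT5 binds the letters TTCNNNGAA, which read the same on both strands. The promoter windows of Cish and Lta from RefSeq (GRCm38.p6, 250 bases before to 50 after the start of the transcript, 300 bases, 5' to 3') are shown because both genes were among the largest rises and each window holds these letters 2 times, printed in capitals. Cish lies on the plus strand at chr9:107296409-107296708, with matches that begin at bases 251 and 262 of the window, and Lta on the minus strand at chr17:35205302-35205601, with matches that begin at bases 99 and 235.
Cish: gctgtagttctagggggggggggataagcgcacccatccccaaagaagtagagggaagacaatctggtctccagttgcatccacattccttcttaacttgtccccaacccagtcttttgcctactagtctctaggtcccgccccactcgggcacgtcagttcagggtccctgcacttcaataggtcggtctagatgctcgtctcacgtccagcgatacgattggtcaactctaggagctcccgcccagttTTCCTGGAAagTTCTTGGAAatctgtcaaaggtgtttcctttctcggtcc
Lta: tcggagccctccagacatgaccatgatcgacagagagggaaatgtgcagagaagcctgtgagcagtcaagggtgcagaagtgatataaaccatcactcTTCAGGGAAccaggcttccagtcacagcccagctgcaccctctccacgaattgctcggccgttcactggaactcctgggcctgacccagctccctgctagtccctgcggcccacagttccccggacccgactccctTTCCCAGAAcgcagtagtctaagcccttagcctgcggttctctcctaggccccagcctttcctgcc
The matches in Cish lie just behind the start and those in Lta before it. Of the 32851 RefSeq mouse windows of this length, 8.30% hold the letters. Among the tested genes with a window, at least 1 window held them in 1239 of 14454 (8.57%), in 34 of 270 genes higher by at least 1 with IL-2 (12.6%) and in 31 of 307 genes lower by at least 1 (10.1%). Of 16 STAT5 targets with a window, 3 held them (Cish, Lta and Gzmb). A match is a description of the sequence and not a measured binding site.

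Genes known to be lowered by IL-2 or STAT5 in T cells were lower. Of 10 measured, 7 were lower and 0 were higher, with a median of -1.44 (6, 6 and 8 lower without replicates 1, 2 and 3). Klf2, a transcription factor of resting T cells that keeps egress receptors on, had levels of 7.18, 7.56 and 7.03 with IL-2 and 9.72, 11.18 and 10.09 with IL-15, a difference of -3.08 (SE 0.27, adjusted p = 3.2e-06). S1pr1, the receptor for egress from lymphoid tissue and a target of KLF2, had levels of 6.36, 6.96 and 7.27 with IL-2 and 9.09, 10.20 and 8.02 with IL-15, a difference of -2.24 (SE 0.36, adjusted p = 3.4e-04). The groups did not overlap in either gene, though IL-15 replicate 3 of S1pr1 was nearer to the IL-2 arrays. The IL-2 mean of S1pr1 was 6.86, under the background level, so the size of its fall is not exact. Bach2, a repressor that restrains effector differentiation, was lower by 1.80 (SE 0.22, adjusted p = 4.2e-05), and Bcl6, a transcriptional repressor needed for follicular helper cells and memory, at -1.61 (SE 0.29, adjusted p = 7.9e-04). Both group means of Bcl6 lay under the background level, and it lost its call without replicate 1 and without replicate 2. Il6st, the signalling chain of the IL-6 receptor, was lower by 1.41 (SE 0.17, adjusted p = 2.9e-05). Il7r, which IL-2 is known to lower, differed by -0.15 (SE 0.20, adjusted p = 0.746).

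Several cytokine genes were higher with IL-2. Of 21 secreted cytokines measured, 11 were higher (52.4%, against 11.5% of all genes) and 3 were lower (14.3%, near 10.9%). The median was 0.88. Without replicates 1, 2 and 3 there were 9, 11 and 13 higher and 1, 2 and 3 lower. Ifng, interferon gamma, had levels of 10.46, 8.83 and 10.63 with IL-2 and 7.83, 6.51 and 7.61 with IL-15, higher by 2.66 (SE 0.35, adjusted p = 6.7e-05). Il24 had levels of 8.62, 8.52 and 6.65 with IL-2 and 4.28, 4.50 and 5.35 with IL-15, higher by 3.22 (SE 0.47, adjusted p = 1.7e-04), with replicate 3 the lowest of the IL-2 arrays and the highest of the IL-15 arrays. Every IL-15 array of Il24 and its IL-2 replicate 3 lay under the background level, so the size of its rise is not exact. Tnf, the neighbour of Lta on chromosome 17, was higher by 0.88 (SE 0.11, adjusted p = 4.1e-05). Csf2 (GM-CSF) and Il13 were higher by 1.11 (SE 0.20, adjusted p = 0.00105) and 1.05 (SE 0.18, adjusted p = 6.0e-04). The IL-2 gene itself had group means of 4.04 with IL-2 and 4.44 with IL-15, both under the background level. Il16, a chemoattractant precursor, was lower by 1.22 (SE 0.11, adjusted p = 3.6e-06) and Ltb, the membrane partner of lymphotoxin alpha, at -0.63 (SE 0.12, adjusted p = 0.00165), a call lost without replicate 1. Of 10 chemokines, 0 were higher and 2 were lower (20%, against 10.9% of all genes). The number lower was 1, 2 and 5 without replicates 1, 2 and 3. Xcl1, which attracts cross-presenting dendritic cells, had levels of 6.29, 6.83 and 7.43 with IL-2 and 10.54, 10.73 and 10.42 with IL-15, a difference of -3.71 (SE 0.28, adjusted p = 9.9e-07), and its groups did not overlap. Its IL-2 mean of 6.85 lay under the background level, so the size of this fall is not exact. Ccl5 was lower by 1.68 (SE 0.29, adjusted p = 5.5e-04) and lost its call without replicate 1.

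Cytotoxic genes were called in both directions. Of 19 measured, 3 were higher (15.8%, against 11.5% of all genes) and 7 were lower (36.8%, against 10.9%). The number higher was 3, 3 and 3, and the number lower 4, 5 and 8, without replicates 1, 2 and 3. Prf1, which encodes perforin, had levels of 9.54, 9.08 and 9.68 with IL-2 and 8.11, 7.75 and 7.52 with IL-15, higher with IL-2 by 1.64 (SE 0.14, adjusted p = 3.3e-06). Gzmb, granzyme B, had levels of 14.80, 14.68 and 14.89 with IL-2 and 13.50, 12.80 and 13.89 with IL-15, higher by 1.39 (SE 0.18, adjusted p = 7.4e-05). In both the groups did not overlap. Fasl, the ligand of the death receptor Fas, was higher by 1.03 (SE 0.21, adjusted p = 0.00202). Granzymes K and M were lower, Gzmk at -1.10 (SE 0.25, adjusted p = 0.0042) and Gzmm at -0.85 (SE 0.14, adjusted p = 5.0e-04), as was the granule membrane gene Nkg7 at -0.52 (SE 0.08, adjusted p = 4.0e-04). Gzma differed by -0.27 (SE 0.24, adjusted p = 0.579). The group means of Gzmk lay at or under the background level.

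Transcription factors of effector and memory differentiation also moved in both directions. Of 25 measured, 7 were higher (28%, against 11.5% of all genes) and 8 were lower (32%, against 10.9%). The number higher was 6, 5 and 9, and the number lower 5, 6 and 9, without replicates 1, 2 and 3. Prdm1, which encodes BLIMP-1, a repressor that drives terminal effector differentiation, had levels of 7.44, 7.81 and 7.69 with IL-2 and 5.79, 5.98 and 6.12 with IL-15, higher by 1.68 (SE 0.23, adjusted p = 9.2e-05). The basic leucine zipper repressor Nfil3 had levels of 10.62, 11.50 and 10.39 with IL-2 and 7.81, 8.25 and 8.45 with IL-15, higher by 2.67 (SE 0.23, adjusted p = 3.3e-06). The groups of both genes did not overlap, and the IL-15 arrays of Prdm1 were under the background level. Irf4, which couples receptor signals to expansion, was higher by 1.34 (SE 0.13, adjusted p = 8.3e-06). Among the falls were 3 Ikaros family genes, Ikzf1 (-0.91), Ikzf2, which encodes Helios (-2.17), and Ikzf3, which encodes Aiolos (-1.32). Id3, an inhibitor of E proteins kept by memory precursors, was lower by 1.22 (SE 0.23, adjusted p = 0.0012). Tbx21 (T-bet) and Eomes, which direct the effector and memory programs, differed by -0.17 (SE 0.15, adjusted p = 0.571) and 0.06 (SE 0.16, adjusted p = 0.915).

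Genes of amino acid synthesis and of the ATF4 response, the program that cells switch on when amino acids run short or mTORC1 is active, were higher with IL-2. Of 18 measured, 16 were higher and 0 were lower, with a median of 1.20 (13, 11 and 16 higher without replicates 1, 2 and 3). Cth, the last enzyme of cysteine synthesis from methionine, had levels of 8.50, 7.62 and 8.61 with IL-2 and 6.27, 3.69 and 5.69 with IL-15, higher by 3.02 (SE 0.34, adjusted p = 2.2e-05). Asns, asparagine synthetase, had levels of 11.13, 11.34 and 10.92 with IL-2 and 9.09, 7.46 and 8.58 with IL-15, higher by 2.75 (SE 0.30, adjusted p = 1.5e-05). In both the lowest array was IL-15 replicate 2, and the groups did not overlap. Every IL-15 array of Cth lay under the background level, so the size of its rise is not exact. Atf4 itself had levels of 12.73, 12.47 and 12.69 with IL-2 and 11.11, 10.69 and 11.41 with IL-15, higher by 1.56 (SE 0.11, adjusted p = 8.3e-07). Nupr1, a stress-induced transcriptional regulator, was higher by 2.66 (SE 0.30, adjusted p = 2.3e-05), the glutathione-degrading enzyme gene Chac1 by 1.68 (SE 0.27, adjusted p = 3.5e-04), the transcription factor gene Cebpb by 1.43 (SE 0.16, adjusted p = 2.3e-05) and the pseudokinase gene Trib3 by 1.26 (SE 0.21, adjusted p = 4.0e-04). The IL-15 mean of Nupr1 was 5.37, under the background level, so the size of its rise is not exact. The serine synthesis enzymes Phgdh, Psat1 and Psph were higher by 0.68, 1.00 and 0.74, and Phgdh lost its call without replicate 1 or 2 and Psph without replicate 2.

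ATF4 together with C/EBP proteins binds TGATGNAA. The RefSeq windows of Asns, at chr6:7693160-7693459 on the minus strand, and Nupr1, at chr7:126625421-126625720 on the minus strand (GRCm38.p6), hold it 1 time each, and are shown because both genes were among the largest rises. The match, in capitals, begins at base 228 of the window in Asns and at base 141 in Nupr1, where the letters stand on the other strand.
Asns: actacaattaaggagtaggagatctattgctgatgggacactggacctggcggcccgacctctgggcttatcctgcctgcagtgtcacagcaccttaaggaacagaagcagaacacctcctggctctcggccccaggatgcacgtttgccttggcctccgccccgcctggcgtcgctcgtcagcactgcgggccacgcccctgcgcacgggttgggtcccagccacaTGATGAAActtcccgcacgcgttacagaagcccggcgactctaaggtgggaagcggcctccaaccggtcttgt
Nupr1: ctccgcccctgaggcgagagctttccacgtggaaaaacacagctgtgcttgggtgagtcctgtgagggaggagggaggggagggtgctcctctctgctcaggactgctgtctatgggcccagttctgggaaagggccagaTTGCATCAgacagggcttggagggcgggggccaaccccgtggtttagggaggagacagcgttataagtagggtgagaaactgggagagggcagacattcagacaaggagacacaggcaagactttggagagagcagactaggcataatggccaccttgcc
The match in Asns is close to the start and that in Nupr1 farther before it. The letters, on either strand, occur in 3.97% of the 32851 windows. They were found in 468 of 14454 tested genes with a window (3.24%), in 21 of 270 genes higher by at least 1 (7.78%), in 10 of 307 genes lower by at least 1 (3.26%) and in 5 of 17 genes of the amino acid and ATF4 list (29.4%), namely Asns, Chac1, Nupr1, Slc7a11 and Trib3. Some of these genes were put on the list because ATF4 is known to bind there, so the share in the list is not independent of it.

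Genes for the charging and uptake of amino acids were higher as well. Of 19 cytosolic aminoacyl tRNA synthetases, which load amino acids onto tRNA, 16 were higher and 0 were lower, with a median of 0.91 (11, 11 and 16 higher and 0, 0 and 2 lower without replicates 1, 2 and 3), led by those for cysteine (Cars, 1.76 (SE 0.18, adjusted p = 9.0e-06)), methionine (Mars1, 1.41 (SE 0.18, adjusted p = 6.6e-05)) and isoleucine (Iars, 1.40 (SE 0.15, adjusted p = 1.5e-05)). The synthetase for glutamine (Qars) did not pass, at -0.31 (SE 0.14, adjusted p = 0.152). Slc7a5 and Slc3a2, the light and heavy chain of the transporter for large neutral amino acids, were higher by 2.31 (SE 0.21, adjusted p = 3.7e-06) and 1.34 (SE 0.13, adjusted p = 7.2e-06). Slc7a5 had levels of 11.99, 11.83 and 11.34 with IL-2 and 9.82, 8.68 and 9.72 with IL-15, with no overlap. The arginine and lysine transporter Slc7a1 was higher by 1.09 (SE 0.15, adjusted p = 7.8e-05) and the folate carrier Slc19a1 by 0.79 (SE 0.09, adjusted p = 2.3e-05). Of 17 nutrient transporters 9 were higher and 0 were lower (5, 4 and 11 higher without replicates 1, 2 and 3), while Tfrc, the transferrin receptor for iron uptake, differed by 0.31 (SE 0.12, adjusted p = 0.0961). In one-carbon metabolism and nucleotide synthesis, which supply bases for DNA and RNA, 15 of 22 genes were higher and 0 were lower (10, 10 and 16 higher without replicates 1, 2 and 3). The mitochondrial folate enzymes Shmt2 and Mthfd2 were higher by 1.41 (SE 0.18, adjusted p = 6.2e-05) and 1.14 (SE 0.13, adjusted p = 2.9e-05), the purine enzyme Gart by 1.09 (SE 0.10, adjusted p = 5.7e-06) and Ctps, CTP synthase, by 1.24 (SE 0.18, adjusted p = 1.3e-04).

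Genes of ribosome biogenesis were higher with IL-2. Of 32 nucleolar factors, which make and assemble ribosomal RNA, 30 were higher and 0 were lower, with a median of 0.84 and medians of 0.92, 0.98 and 0.66 in the pairs of replicates 1, 2 and 3. The number higher was 20, 21 and 31 without replicates 1, 2 and 3, and 18 without the replicate block. Nolc1, a nucleolar phosphoprotein, had levels of 10.97, 10.36 and 10.76 with IL-2 and 9.54, 8.75 and 9.73 with IL-15, higher by 1.36 (SE 0.13, adjusted p = 7.2e-06). Nop16 was higher by 1.22 (SE 0.14, adjusted p = 1.9e-05), Mybbp1a by 1.08 (SE 0.11, adjusted p = 1.3e-05) and Nop2, which methylates ribosomal RNA, by 1.05 (SE 0.13, adjusted p = 3.2e-05). By contrast, of 17 cytosolic ribosomal protein genes 0 were higher and 1 was lower, with a median of -0.04. Identical deposited values in replicate 3 were held by 5 of the 17. The member lower was Rpl37 at -0.42 (SE 0.11, adjusted p = 0.0151), which lost its call without IL-2 replicate 3 (adjusted p = 0.0611) or IL-15 replicate 2 (adjusted p = 0.122). Myc, a transcription factor that drives nucleolar genes, had levels of 11.39, 11.64 and 10.98 with IL-2 and 10.40, 10.61 and 9.57 with IL-15, higher by 1.14 (SE 0.12, adjusted p = 1.6e-05). Mxd4, which competes with MYC for its partner MAX and represses the same sites, had levels of 6.71, 7.13 and 6.73 with IL-2 and 10.11, 10.99 and 9.09 with IL-15, a difference of -3.20 (SE 0.27, adjusted p = 3.0e-06), and no IL-2 array exceeded the background level. Over this network of 12 genes 2 were higher (16.7%, near the 11.5% of all genes) and 5 were lower (41.7%, against 10.9%). The number lower was 3 without IL-2 replicate 2 or IL-15 replicate 2, and 2, 2 and 5 without replicates 1, 2 and 3. MYC and MXD proteins bind the letters CACGTG, the same on both strands. They occur in 7.15% of the 32851 windows, in 1479 of 14454 tested genes with a window (10.2%), in 43 of 270 genes higher by at least 1 (15.9%), in 31 of 307 genes lower by at least 1 (10.1%) and in 6 of 27 ribosome biogenesis genes (22.2%).

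Lipid synthesis genes were higher with IL-2. Of 20 genes of cholesterol synthesis, the targets of SREBP2, 15 were higher and 1 was lower, with a median of 0.76 and medians of 0.64, 1.22 and 0.21 in the pairs of replicates 1, 2 and 3. Lss, lanosterol synthase, was higher by 1.43 (SE 0.27, adjusted p = 0.00115) and Hsd17b7 by 1.05 (SE 0.16, adjusted p = 1.9e-04), while Ebp, a sterol isomerase, was lower by 0.29 (SE 0.07, adjusted p = 0.00975), a call lost without replicate 1 or 2. Of 15 genes of fatty acid synthesis 11 were higher and 1 was lower. The desaturase Scd1 had levels of 10.73, 11.42 and 10.52 with IL-2 and 8.06, 7.50 and 9.79 with IL-15, higher by 2.44 (SE 0.43, adjusted p = 6.8e-04). Its IL-15 replicate 3 lay well above the other IL-15 arrays, and Scd1 lost its call without replicate 1, as did Lss. Fasn, fatty acid synthase, was higher by 0.95 (SE 0.13, adjusted p = 1.0e-04). Without replicate 1, 4 cholesterol genes and 2 fatty acid genes were higher, and without replicate 2, 3 and 4. Without IL-15 replicate 1 or IL-2 replicate 2, 7 fatty acid genes were higher.

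Some genes of glucose use and of the hypoxia response were higher with IL-2. Hk2, hexokinase 2, which starts glycolysis, had levels of 11.39, 11.44 and 10.71 with IL-2 and 9.58, 9.16 and 9.75 with IL-15, higher by 1.68 (SE 0.23, adjusted p = 1.0e-04), with no overlap. The glucose transporter gene Slc2a1 was higher by 0.77 (SE 0.16, adjusted p = 0.00208) and lost its call without replicate 2. In all 7 of 15 glycolysis genes were higher and 0 were lower, but 3 were higher without IL-2 replicate 2 and 3 without IL-15 replicate 2, and 3, 1 and 8 without replicates 1, 2 and 3. Of 17 HIF targets 9 were higher and 1 was lower, with a median of 0.62 (5, 5 and 13 higher without replicates 1, 2 and 3). Egln3, an oxygen-sensing prolyl hydroxylase, was higher by 1.62 (SE 0.24, adjusted p = 1.8e-04) and P4ha2, a collagen prolyl hydroxylase, by 1.91 (SE 0.31, adjusted p = 3.5e-04). The IL-15 mean of P4ha2 was 6.56, under the background level. In mitochondrial respiration and the TCA cycle 6 of 26 genes were higher and 1 was lower, with a median of 0.11. These are 23.1% and 3.85%, against 11.5% and 10.9% of all genes. Without IL-2 replicate 2 and IL-15 replicate 2, 3 and 2 were higher, as were 1, 0 and 8 without replicates 1, 2 and 3. In the endoplasmic reticulum 11 of 22 folding and secretion genes were higher and 1 was lower (4, 8 and 12 higher without replicates 1, 2 and 3), led by Xbp1, the transcription factor of the secretory pathway, with levels of 13.07, 12.99 and 12.59 with IL-2 and 11.23, 11.08 and 11.24 with IL-15 and a difference of 1.70 (SE 0.10, adjusted p = 2.6e-07).

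Cell cycle genes were called in both directions. Of 29 DNA replication genes 7 were higher (24.1%, against 11.5% of all genes) and 0 were lower (median 0.28). Of 24 mitosis genes 0 were higher and 7 were lower (29.2%, against 10.9% of all genes, median -0.17). Orc1, a subunit of the origin recognition complex, was higher by 1.59 (SE 0.26, adjusted p = 4.0e-04). The mitotic cyclin gene Ccnb2 was lower by 0.61 (SE 0.12, adjusted p = 0.00128) and Nusap1, a spindle protein, at -0.58 (SE 0.10, adjusted p = 6.2e-04), and both lost their call without replicate 1. These counts depended on single arrays. DNA replication genes higher numbered 4, 4, 3, 3 and 13 without IL-2 replicate 1, IL-15 replicate 1, IL-2 replicate 2, IL-15 replicate 2 and IL-15 replicate 3, and mitosis genes lower numbered 3 without each of IL-2 replicate 1, IL-15 replicate 1, IL-15 replicate 2 and IL-2 replicate 3. The DNA replication genes higher numbered 1, 1 and 16, and mitosis genes lower 0, 2 and 5, without replicates 1, 2 and 3. Mki67, the gene of the proliferation marker Ki-67, differed by -0.22 (SE 0.10, adjusted p = 0.137). Among 19 G1 cyclins, CDKs and CDK inhibitors 4 were higher (21.1%, against 11.5% of all genes) and 7 were lower (36.8%, against 10.9%). Without replicates 1, 2 and 3 there were 3, 3 and 6 higher and 4, 6 and 7 lower. Cdk6 was higher by 1.93 (SE 0.23, adjusted p = 3.2e-05) while the inhibitor p27 (Cdkn1b) was lower by 1.03 (SE 0.11, adjusted p = 1.6e-05). Ccnd3, cyclin D3, was higher by 1.15 (SE 0.16, adjusted p = 1.2e-04) in the probe set used, but another probe set of it was lower by 2.23 (adjusted p = 1.5e-05), so its direction depends on the probe set.

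Genes of resting naive and memory T cells were lower with IL-2. Of 25 measured, 19 were lower and 1 was higher, with a median of -1.40 (16, 16 and 21 lower without replicates 1, 2 and 3). Dapl1, a gene known from naive and memory cells, had levels of 10.05, 9.51 and 10.45 with IL-2 and 12.36, 12.35 and 12.44 with IL-15, a difference of -2.38 (SE 0.18, adjusted p = 8.7e-07). Pik3ip1, an inhibitor of PI3 kinase, had levels of 7.0, 8.12 and 7.16 with IL-2 and 9.22, 10.76 and 9.16 with IL-15, a difference of -2.29 (SE 0.20, adjusted p = 3.6e-06). Neither gene had overlapping groups. The transcription factor Lef1, which acts downstream of WNT signals in memory precursors, was lower by 1.40 (SE 0.17, adjusted p = 3.0e-05), the kruppel-like factor Klf3 at -1.96 (SE 0.30, adjusted p = 2.7e-04), and Btg2 and Btg1, which restrain proliferation, at -1.86 (SE 0.17, adjusted p = 5.1e-06) and -0.92 (SE 0.19, adjusted p = 0.00194). Txnip, an inhibitor of glucose uptake, was lower by 1.58 (SE 0.23, adjusted p = 1.7e-04). The gene that rose was Klf7 (0.76).

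Homing and egress genes, some of which are also on the resting cell list, were lower as well, 13 of 23, with 1 higher and a median of -0.49 (9, 9 and 14 lower without replicates 1, 2 and 3). Itga4, the alpha 4 integrin chain that binds VCAM-1, had levels of 7.87, 7.61 and 7.45 with IL-2 and 9.97, 10.42 and 9.79 with IL-15, a difference of -2.42 (SE 0.19, adjusted p = 1.4e-06), with no overlap. The chemokine receptors of peripheral tissue Cxcr6 and Cxcr3 were lower, at -2.50 (SE 0.31, adjusted p = 4.7e-05) and -2.02 (SE 0.23, adjusted p = 2.4e-05), and Ccr7, the receptor for lymph node entry, at -1.47 (SE 0.12, adjusted p = 2.3e-06). Itgae (CD103), which holds T cells in epithelia, had levels of 6.04, 6.00 and 6.32 with IL-2 and 8.72, 10.76 and 7.22 with IL-15, a difference of -2.78 (SE 0.53, adjusted p = 0.00123). Its IL-15 arrays spread widely, with replicate 3 lowest, and its call was lost without replicate 1. Every IL-2 array of Itgae lay under the background level, so the size of its fall is not exact. Ccr4 was the member higher with IL-2 (1.29 (SE 0.20, adjusted p = 2.5e-04)). Among receptors for other cytokines 13 of 21 were lower and 2 were higher (8, 8 and 13 lower without replicates 1, 2 and 3). Both were chains of the IL-12 receptor, Il12rb1 at 1.51 (SE 0.11, adjusted p = 1.0e-06) and Il12rb2 at 0.64 (SE 0.20, adjusted p = 0.0303), and Il12rb2 lost its call without IL-2 replicate 3 (adjusted p = 0.149) and without any 1 of the IL-15 arrays (0.0792, 0.0523 and 0.108). Those lower included Tgfbr2 for TGF-beta (-1.32), Ifnar1 and Ifngr1 for the interferons (-1.0 and -0.99) and Il18rap for IL-18 (-1.02).

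Some co-stimulatory receptors were higher with IL-2 and others were lower. Tnfrsf4 (OX40), of the TNF receptor family, had levels of 12.32, 12.56 and 12.28 with IL-2 and 10.37, 9.51 and 10.48 with IL-15, higher by 2.27 (SE 0.21, adjusted p = 5.4e-06). Tnfrsf9 (4-1BB) and Tnfrsf18 (GITR) were higher by 1.70 (SE 0.19, adjusted p = 2.1e-05) and 1.34 (SE 0.12, adjusted p = 4.8e-06). Cd27, a receptor of the same family found on naive and memory cells, had levels of 9.38, 8.86 and 8.96 with IL-2 and 11.23, 11.63 and 10.41 with IL-15, a difference of -2.02 (SE 0.20, adjusted p = 7.7e-06), and Cd28 was lower by 0.79 (SE 0.09, adjusted p = 3.1e-05). The groups of Tnfrsf4 and Cd27 did not overlap. Over the 18 co-stimulatory genes 4 were higher (22.2%, against 11.5% of all genes) and 4 were lower (22.2%, against 10.9%). Without either IL-2 replicate 2 or IL-15 replicate 2 there were 2 lower. Without replicates 1, 2 and 3 there were 3, 4 and 6 higher and 2, 2 and 5 lower. Of 14 inhibitory receptors 5 were lower (35.7%, against 10.9% of all genes) and 1 was higher (7.14%, against 11.5%). Cd96 was at -2.05 (SE 0.17, adjusted p = 2.3e-06) and Cd160 at -1.74 (SE 0.14, adjusted p = 1.7e-06). Pdcd1 (PD-1) and Ctla4 differed by -0.31 (SE 0.18, adjusted p = 0.283) and 0.10 (SE 0.15, adjusted p = 0.797). The member higher, Havcr2 (TIM-3), lay under the background level in all arrays. Among 9 NK receptors 4 were lower and 0 were higher (1, 2 and 4 lower without replicates 1, 2 and 3). Klrd1 (CD94), which pairs with NKG2 chains, had levels of 10.03, 10.50 and 11.33 with IL-2 and 13.01, 13.46 and 13.01 with IL-15, a difference of -2.54 (SE 0.28, adjusted p = 1.9e-05). Klrk1 (NKG2D), at -1.07, lost its call without IL-2 replicate 1 or IL-15 replicate 2 (adjusted p = 0.0871 and 0.0964), and 2 members were lower without either array.

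In the BCL2 family the largest difference was that of Bcl2l11, which encodes BIM, a pro-apoptotic member of the family. It had levels of 8.09, 8.84 and 8.47 with IL-2 and 10.90, 11.42 and 10.76 with IL-15, a difference of -2.56 (SE 0.16, adjusted p = 3.3e-07), with no overlap. Mcl1, a survival factor, was lower by 0.62 (SE 0.10, adjusted p = 3.2e-04). Bcl2l1, which encodes BCL-XL, was higher by 1.01 (SE 0.17, adjusted p = 5.1e-04) but lost its call without replicate 1 and without replicate 2. Bcl2 had levels of 12.08, 12.38 and 11.93 with IL-2 and 10.94, 10.79 and 11.88 with IL-15 and a difference of 0.93 (SE 0.25, adjusted p = 0.0141), which was lost if IL-2 replicate 1 or 2 (adjusted p = 0.0589 and 0.0737) or 1 of the same IL-15 replicates (0.0672 and 0.116) was left out. Its IL-15 replicate 3 lay just below the lowest IL-2 array. Other probe sets of Bcl2 were higher by 0.74 and 1.04 (adjusted p = 0.0136 and 0.00992). Still others differed by 0.08 and 0.09 (adjusted p = 0.962 and 0.952), so the difference of Bcl2 depends on the probe set. In all 4 of 14 members were higher (28.6%, against 11.5% of all genes) and 4 were lower (28.6%, against 10.9%). There were 2 higher without IL-2 replicate 1 or IL-15 replicate 1, and 2 higher and 2 lower without IL-15 replicate 2. The number higher was 0, 0 and 5, and the number lower 2, 3 and 4, without replicates 1, 2 and 3. Of 14 caspases and death receptors 1 was higher (7.14%, against 11.5% of all genes) and 4 were lower (28.6%, against 10.9%). The number lower was 1, 2 and 5 without replicates 1, 2 and 3. The death receptor Fas was at -0.95 (SE 0.18, adjusted p = 0.00114), a call that was lost without replicate 1 and without replicate 2. Casp2 was at -0.62 (SE 0.10, adjusted p = 4.0e-04).

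T cell receptor signalling genes were lower, 14 of 19, with 1 higher and a median of -0.47 (7, 5 and 15 lower without replicates 1, 2 and 3). The CD3 chain gene Cd3e had levels of 10.89, 11.17 and 10.88 with IL-2 and 11.90, 12.17 and 11.60 with IL-15, a difference of -0.91 (SE 0.13, adjusted p = 1.4e-04), and Cd8b1, the beta chain of CD8, had levels of 11.21, 11.38 and 11.78 with IL-2 and 12.02, 12.71 and 12.49 with IL-15, a difference of -0.95 (SE 0.12, adjusted p = 6.4e-05). The member higher was Malt1 (0.74 (SE 0.13, adjusted p = 9.7e-04)), a protease that links the receptor to NF-kappaB, and it lost its call without replicate 2. Of the 9 CD8 T cell markers measured, 7 were lower and 0 were higher, with a median of -0.75 (6, 5 and 7 lower without replicates 1, 2 and 3). Some of these markers, such as Cd3e and Cd8b1, are also on the T cell receptor signalling list, so the counts are not independent. All 9 lay above the background level in both groups, with list means of 11.5 to 11.8 over the IL-2 arrays and 12.1 to 12.4 over the IL-15 arrays. All 8 GIMAP genes, GTPases of lymphocyte survival, were lower, with a median of -0.68 against 0.02 over all genes, and Gimap6 fell by 1.09 (SE 0.12, adjusted p = 1.7e-05). The number lower was 6, 5 and 8 without replicates 1, 2 and 3. In the lysosome and autophagy list 8 of 22 were lower and 0 were higher (4, 4 and 13 lower without replicates 1, 2 and 3), with the cathepsin genes Ctss and Ctsd at -1.18 (SE 0.16, adjusted p = 1.2e-04) and -0.91 (SE 0.11, adjusted p = 5.0e-05).

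Interferon-induced genes were lower with IL-2. Of 24 measured, 14 were lower and 0 were higher, with a median of -0.74 (8, 10 and 15 lower without replicates 1, 2 and 3). Ifi27l2a had levels of 9.32, 10.08 and 10.39 with IL-2 and 11.58, 12.29 and 11.68 with IL-15, a difference of -1.92 (SE 0.18, adjusted p = 6.1e-06). The apoptosis-linked gene Xaf1 was lower by 1.86 (SE 0.28, adjusted p = 2.0e-04), and Irf7 and Irf9, transcription factors of the interferon response, at -1.31 (SE 0.22, adjusted p = 4.1e-04) and -1.22 (SE 0.19, adjusted p = 2.7e-04). The antiviral gene Mx1 did not pass, at -0.53 (SE 0.19, adjusted p = 0.0577). Some marker genes of antigen presenting cells were lower too, while most did not pass. The macrophage gene Lyz2 had group means of 6.42 with IL-2, 8.02 with IL-15 and 9.34 in media control, Cd74 of 7.51, 8.76 and 9.82, and H2-Aa of 7.33, 8.63 and 9.57. Of 12 myeloid markers 3 were lower and 0 were higher (median -0.39), with list means of 5.18 to 5.52 over the IL-2 arrays, 5.30 to 6.54 over the IL-15 arrays and 5.60 to 7.23 over the media control arrays. Of 11 dendritic cell markers 4 were lower (median 0.01, list means 6.01 to 6.29, 6.11 to 6.81 and 6.54 to 7.14) and of 11 B cell markers 3 were lower (5.00 to 5.18, 5.38 to 5.53 and 5.59 to 5.66). The shares lower were 25% of myeloid, 36.4% of dendritic cell and 27.3% of B cell markers, against 10.9% of all genes. The defining genes Pax5, Ebf1, Csf1r, Itgam, Adgre1, Flt3, Zbtb46 and Xcr1 had means under the background level in all 3 groups. Without IL-2 replicate 2 or IL-15 replicate 2, 1 myeloid and 2 dendritic cell markers were lower, and without IL-2 replicate 3, 5 myeloid markers. Lyz2 and H2-Aa lost their calls without replicate 1 or 2, and Cd74 without replicate 2. The myeloid markers lower numbered 0, 0 and 5 without replicates 1, 2 and 3. For dendritic cell markers these numbers were 1, 0 and 4, and for B cell markers 1, 1 and 3. The part of these cells in the falls of interferon, lysosome and other genes was not tested.

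**Figure D4:**
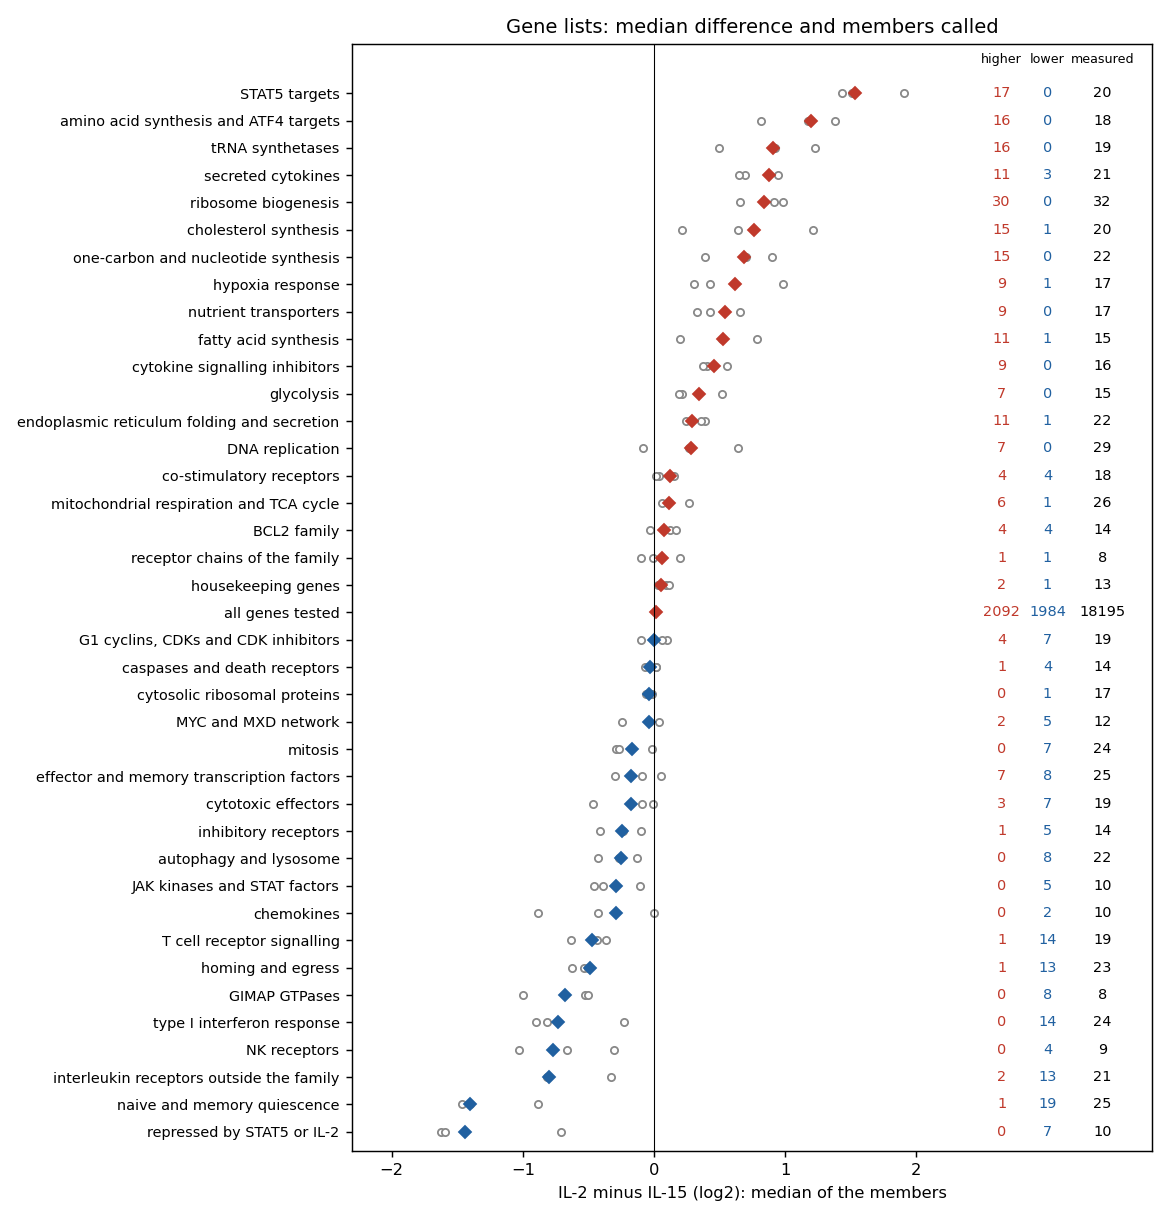
Median of IL-2 minus IL-15 (horizontal axis, log2) over the members of each gene list (vertical axis). The lists of cell type markers and of tissue genes are not drawn. Diamonds are the medians from the fit, red above 0 and blue below, open circles are the medians of the 3 replicate pairs, and the columns give the members higher, lower and measured. STAT5 targets lie at the top with a median of 1.54, genes repressed by STAT5 or IL-2 at the bottom with -1.44, and all genes at 0.02.

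Media control gives the level in cells that were cultured without added cytokine. Compared with media control, 2815 genes were higher with IL-2 (15.5%) and 2746 were lower (15.1%), while 0 were higher (0%) and 0 lower (0%) with IL-15 by limma, where 1566 genes had an unadjusted p under 0.05 and the lowest adjusted p was 0.158. These comparisons share the media control arrays with each other and the cytokine arrays with the comparison of IL-2 and IL-15, so values are given side by side. The media control mean lay closer to the IL-15 mean than to the IL-2 mean in 2083 of the 2092 genes higher and 1965 of the 1984 lower. The IL-15 mean lay on the IL-2 side of media control in 1637 and 1689 of them. The calls used the same IL-2 and IL-15 arrays, so these counts are a description. For Il2ra the difference from media control was 3.14 (adjusted p = 1.2e-07) with IL-2 and 0.48 (adjusted p = 0.494) with IL-15. Lta differed from media control by 3.69 (adjusted p = 1.5e-09) and -0.06 (adjusted p = 1) with IL-2 and IL-15, and Klf2 differed by -3.41 (adjusted p = 5.7e-07) and -0.33 (adjusted p = 0.891). The IL-15 and media control arrays overlapped in all 3 genes. Genes that stood further from media control with IL-15, chosen after their values were seen, were Hk2, at 2.82 (adjusted p = 8.2e-07) with IL-2 and 1.14 (adjusted p = 0.249) with IL-15, and Egln3, at 2.91 (adjusted p = 8.1e-07) and 1.29 (adjusted p = 0.158).

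IL-7, which like IL-2 and IL-15 acts mainly through STAT5, and the other cytokines of the family place the genes further. Against IL-7, 944 genes were higher with IL-2 (5.19%) and 1076 were lower (5.91%). Il2ra had group means of 11.73 with IL-2, 9.07 with IL-15, 11.26 in IL-4 cultures, 10.83 in IL-7 cultures, 11.33 in IL-21 cultures and 8.59 in media control. The IL-15 and media control means were the lowest of the 6. Lta was at 11.72 with IL-2 and 9.70 with IL-7, a difference of 2.02 (adjusted p = 3.3e-06), and at 7.97 with IL-15. Nupr1 stood at 8.02 with IL-2 and between 5.35 and 6.05 in the 5 other groups, and Bcl2l11 at 8.47 with IL-2 and between 10.64 and 11.37 elsewhere. The 5 other means of Nupr1 lay under the background level, so their distances from the IL-2 mean are not exact. Klf2 stood at 7.25 with IL-2 and 7.08 with IL-4, a difference of 0.18 (adjusted p = 0.723), and Itga4 at 7.64 and 7.59, a difference of 0.06 (adjusted p = 0.879). Prdm1 had 7.64 with IL-2 and 8.89 with IL-21, a difference of -1.24 (adjusted p = 0.00115), and Cish had 11.40 with IL-2 and 11.98 with IL-4, a difference of -0.58 (adjusted p = 0.216).

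**Figure D5:**
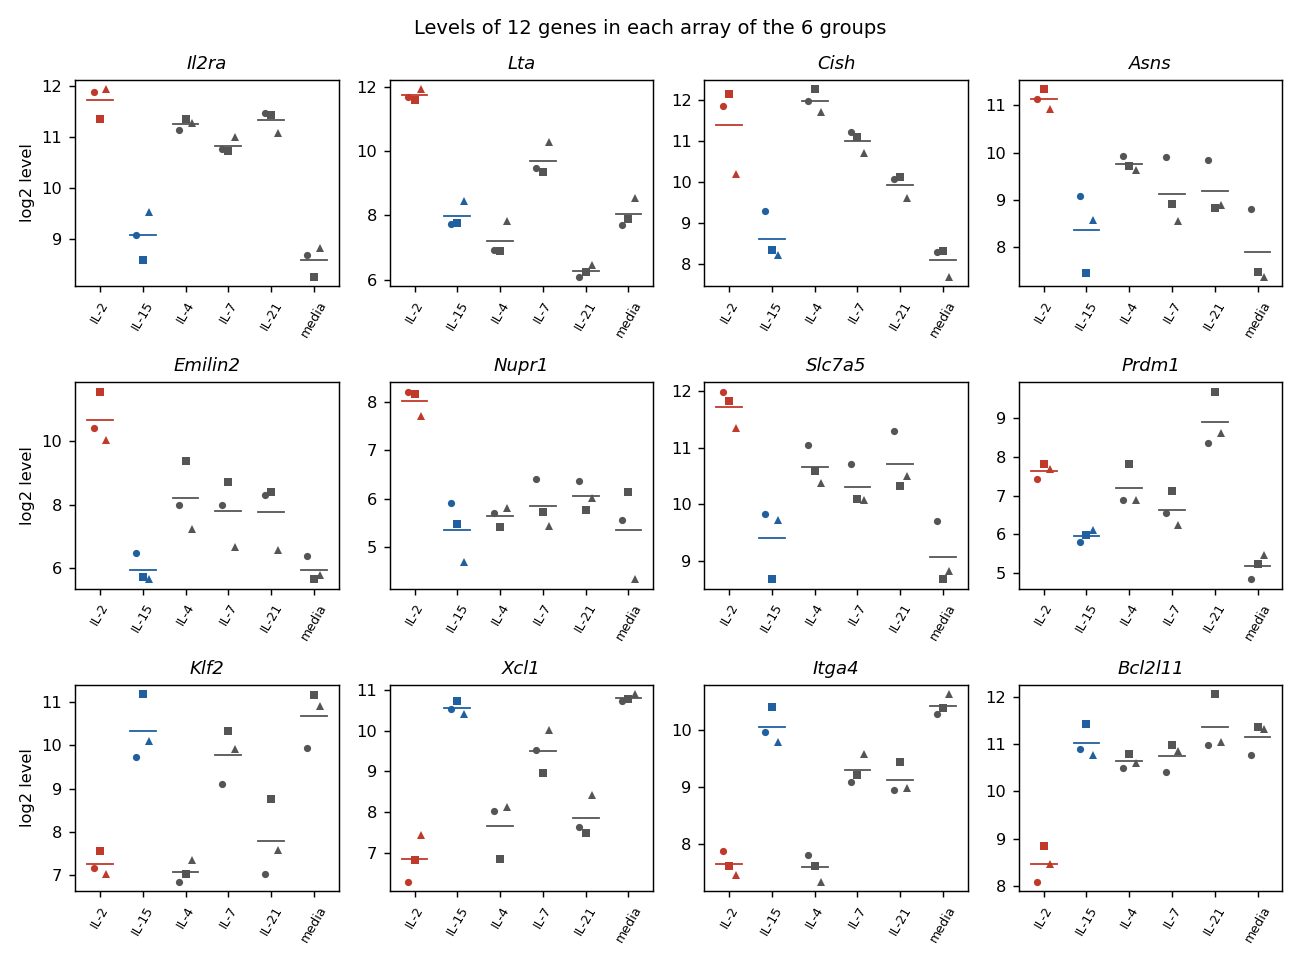
Log2 level (vertical axis) of 12 genes in each array, by group (horizontal axis), with IL-2 in red, IL-15 in blue and the other groups in grey. Circles, squares and triangles are replicates 1, 2 and 3 and bars are group means. In the Nupr1 panel the IL-2 mean of 8.02 lies above the 5 other means, and in the Bcl2l11 panel the IL-2 mean of 8.47 lies below them.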

How the data were processed

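Total RNA of 18 cultures was measured on Affymetrix mouse whole-genome expression arrays. The authors deposited log2 expression values for 45101 probe sets, which they had made with RMA in Affymetrix Expression Console. The table held no columns of the authors' own comparisons, and 0 columns could not be matched to a sample. Array values carry no read depth, so their precision is limited by the number of arrays.

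The 18 columns were quantile normalized together because 3 of them were on a lower scale. GEO's platform annotation listed 35890 probe sets, of which 34958 carried 1 symbol, 932 carried several and were left out, and 9211 were not listed. The probe set of Il2rg was named from the study's own table. The probe set with the highest mean stood for each of 18195 genes. A model with a mean for each of 6 groups and the replicate number as a block was fitted with limma 3.58.1 in R 4.3.3 (lmFit and eBayes), and p-values were adjusted by the Benjamini-Hochberg method, with a threshold of 0.05. Scripts were tested on simulated data. Python 3.11.15 with pandas 2.3.3 served for the promoter counts, and matplotlib 3.10.9 for the plots.

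Deviations from the group means were more alike between arrays with the same replicate number. They correlated at 0.442 or more in all 45 pairs of arrays with the same number, and at 0.383 or less in the 90 pairs with different numbers. Deviations within a group add to 0, which lowers the correlation between different numbers. Replicate 3 also shares its kit and, in 3 groups, identical values. The correlations therefore cannot tell cells of a common origin from a shared kit or processing. The genes and lists were chosen with earlier results of these data known. The genes named were all receptor chains, the 15 largest rises and falls among genes that passed, whose arrays did not overlap and whose higher mean was above the background level, and up to 5 passing members of each list. Further list members were named for their role after their values were seen. Alternatives changed the normalization, the block, the arrays, the probe set rule and the test, and left out each replicate and each array. Promoter windows came from RefSeq (GRCm38.p6) and were matched by gene, with a gene counted where at least 1 of its windows held the letters. No genome or protein table was used here.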

Additional observations from a re-analysis of the deposited data

How the results depend on the processing

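There were 2092 genes higher and 1984 lower with IL-2, and the number called depended on the treatment of the 3 arrays on the lower scale and on the replicate block. With no replicate block 772 and 793 genes were called, all of the 772 among the 2092. With the values as deposited 133 and 148 were called with the block and 10 and 10 without it. When the 3 arrays were given a block level of their own, an alternative chosen after seeing the data, 2377 and 2238 were called from the values as deposited and 2412 and 2309 from the normalized values. Array weights gave 3750 and 3427, and all 34959 probe sets 3477 and 3082. Leaving out a replicate or an array gave 751 to 3047 genes higher and 749 to 2864 lower. The other 6 settings, which kept all arrays of IL-2 and IL-15 and 1 value per gene, gave 1652 to 2196 higher and 1535 to 2120 lower.

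Without the block, and with the values as deposited and the block, the members higher were 15 and 11 of 20 STAT5 targets, 12 and 7 of 18 amino acid and ATF4 genes, 18 and 0 of 32 ribosome biogenesis genes and 10 and 1 of 20 cholesterol genes, and the members lower were 15 and 11 of 25 resting cell genes, 12 and 4 of 24 interferon genes and 7 and 0 of 19 T cell receptor signalling genes.

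Among 255 named genes, some of which were not called, 63 lost their call without the replicate block. With the values as deposited and the block 138 lost it, and none of these changed direction. Ccnd3 was -0.275 (adjusted p = 0.0283) and Stat5b 0.0768 with the mean of probe sets, and Stat5a, which did not pass, was 0.0163 with median centring, 0.0121 with array weights and 0.0811 with the mean of probe sets. Il15ra was -9.36e-05 with the 6 arrays normalized and fitted alone. Among genes that did not pass, leaving out a replicate or an array put Il15ra between -0.0363 and 0.0386, Il4ra between -0.0387 and 0.51, Il7r between -0.398 and 0.0356, Il21r between -0.124 and 0.176, Ctla4 between -0.166 and 0.313, Eomes between -0.0351 and 0.127, Gzma between -0.566 and 0.121, Stat5a between -0.122 and 0.0534 and Tbx21 between -0.34 and 0.0262, and these genes have no settled direction. The cause of these changes was not tested. The 3 arrays a group and the 7.2 background level limit what could be called for dim genes. The identical replicate 3 values limit this for some bright genes too, such as Il2rb and 5 of 17 cytosolic ribosomal protein genes.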

Other observations

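Several genes outside the lists stood apart, all chosen after their values were seen, and the arrays of IL-2 and IL-15 did not overlap for any of them. Atf3, a stress-induced transcription factor gene, had levels of 9.63, 8.85 and 10.01 with IL-2 and 7.13, 6.81 and 6.80 with IL-15, and was higher with IL-2 by 2.58 (SE 0.32, adjusted p = 4.4e-05). Every IL-15 array of Atf3 lay under the background level. Slc7a3, a cationic amino acid transporter gene, was higher by 2.32 (SE 0.21, adjusted p = 3.8e-06), Bcat1, a cytosolic branched-chain aminotransferase gene, by 1.85 (SE 0.22, adjusted p = 3.0e-05) and Srm, which encodes spermidine synthase, by 1.82 (SE 0.16, adjusted p = 3.9e-06). Afp, the gene of the fetal liver protein alpha-fetoprotein, had levels of 9.89, 9.08 and 8.21 with IL-2 and 8.11, 7.19 and 6.00 with IL-15, higher with IL-2 by 1.96 (SE 0.23, adjusted p = 2.7e-05). Among the falls, the receptor gene Slamf6, found on memory-like T cells, had levels of 7.03, 6.82 and 8.10 with IL-2 and 9.75, 10.32 and 9.95 with IL-15, and was lower by 2.69 (SE 0.27, adjusted p = 7.8e-06). The Schlafen gene Slfn2, known for keeping T cells quiescent, was lower by 1.98 (SE 0.21, adjusted p = 1.5e-05) and Slfn1 was lower by 2.63 (SE 0.22, adjusted p = 2.3e-06). These 2 genes are similar in sequence, so their probe sets may not be independent. The cytokine gene Il18 was lower by 2.44 (SE 0.28, adjusted p = 2.3e-05), the stress gene Sesn3 was lower by 1.92 (SE 0.19, adjusted p = 7.7e-06), and the membrane gene Ms4a4b was lower by 2.00 (SE 0.17, adjusted p = 3.3e-06).

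Hemk1 lies next to Cish on chromosome 9 in the RefSeq annotation, and both were among the largest rises, at 3.32 (SE 0.13, adjusted p = 3.1e-09) and 2.79 (SE 0.27, adjusted p = 7.2e-06). In the Ifi200 family on chromosome 1, Ifi209, Mndal and Ifi213 were lower, at -4.13, -2.86 and -2.94. Ifi203, Ifi204 and Ifi207 differed by -0.02, 0.01 and 0.00, and the group means of each lay under the background level. The assignment of single probe sets among these similar genes is uncertain.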
